A study of Drosophila melanogaster with 3 samples.

Results

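The regions described here are the 253 promoter regions of the transcription factor Hey that held a class B or class C binding site, out of 3319 regions that passed the authors' test of reproducibility. That test, the irreproducible discovery rate (IDR), keeps regions whose ranks hold between replicates. A region was taken when its summit, the point of highest signal within it, lay within 500 bp of an annotated transcription start site (TSS). It also had to hold the hexamer CACGTG, the class B E-box, or CACGCG, the class C site, on either strand and whole within 100 bp of the summit. Of 1233 IDR regions at promoters, 86 held CACGTG alone, 155 held CACGCG alone, 12 held both, and 980 held neither. The 253 regions had 251 distinct intervals, 280 distinct sites and 243 distinct nearest genes, so most regions had a nearest gene of their own.

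Hey was assayed by ChIP-seq in whole Drosophila melanogaster embryos of both sexes, aged 6 to 24 h, from a transgenic line with GFP at the C terminus of Hey. There was 1 group, Hey-GFP embryo, with 3 biological replicates per the labels, and no untagged or otherwise treated group was compared. The free text of the labels calls the libraries input control, whereas their assay title and listed antibody describe a transcription factor ChIP. The labels do not say whether the native Hey gene was still present, and whole embryos mix all cell types, so neither the source of Hey nor the cells that bound it can be told apart. Each replicate had a list of 30000 regions with a signal value, the authors' own score of unstated scale, which was used here only for ranks within a list. The read depth is unknown, and no counting error of a signal value can be given.

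Hey belongs to the bHLH-Orange proteins, the basic helix-loop-helix family of Hairy and Enhancer of split, which bind DNA as pairs and mostly repress transcription. Their basic region prefers class B and class C sites, and Hey is known in flies for its expression in new-born neurons downstream of Notch. CACGTG is a palindrome that other bHLH proteins, such as the dimers of Myc and Max, also bind, so the letters of a site do not name the protein on it.

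The CACGTG sites of the strongest regions sat in very different surroundings, which is why 8 of them are shown with the bases beside them. They belong to the 8 regions of highest signal value with CACGTG and without CACGCG on arms 2L, 3L, 3R and X, named by the nearest TSS. Capitals mark the site. Positions are those of release 6 (dm6), and the bases are from the RefSeq sequence of that assembly.
CG32669, chrX:10844933-10844962, plus strand: ttttaagtggggCACGTGttaggctgattt
lncRNA:CR44862, chr2L:15442038-15442067, plus strand: caaagtgtgggtCACGTGtcgcatattaag
CG15531, chr3R:30195959-30195988, plus strand: cttgttatgcggCACGTGgagctgattagc
fbp, chr2L:19763820-19763849, plus strand: ctgatacatcgaCACGTGcccccttattta
Pdp1, chr3L:7867146-7867175, plus strand: ctctcgccaatgCACGTGttacctttgttg
RpS4, chr3L:13041850-13041879, plus strand: tttgcagctagcCACGTGctaagttttgtc
mRpL23, chr3L:2373686-2373715, plus strand: cccgtgtaaaagCACGTGggttgtccaaca
E(spl)m6-BFM, chr3R:26032692-26032721, plus strand: gagattatcctgCACGTGttgagcttgctg

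The CACGCG sites are shown for the 8 strongest regions with that site alone on the same arms. Capitals again mark the site, and each line is written on the strand that reads CACGCG. At TRAM and CG31751 the site was the end of a run of alternating C and A. At 14 of the 155 regions with CACGCG alone, a site stood directly after the letters CACA, whatever the length of the run.
lncRNA:CR45292, chr2L:19012036-19012065, plus strand: tacacgcctccgCACGCGtcacacgaaagc
CG18622, chr3R:16986808-16986837, plus strand: cggggaggtaaaCACGCGcctgcgataaga
CHMP2B, chr3L:5139591-5139620, minus strand: gcagctgttttgCACGCGcttcgtggtgaa
TRAM, chrX:935428-935457, plus strand: cacacacacacaCACGCGcaggcggcacac
ND-B14.5AL, chr3L:22605957-22605986, minus strand: gtgtgacagaagCACGCGtcgggctttact
RpL23A, chr3L:1668787-1668816, minus strand: gcggctgtgttgCACGCGcacagtgtcaag
Trp1, chr2L:10010134-10010163, minus strand: ctgcccaacttaCACGCGtactcaaacttt
CG31751, chr2L:18677591-18677620, minus strand: cgcacacacacaCACGCGcagctgtgggta

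Regions with both sites on these arms are shown where both sites fit in 30 bases, to show how they are spaced. Capitals mark both sites, and CGCGTG is CACGCG read on the other strand. At ctrip and mir-2492 the sites abut, with starts 6 bp apart, and at RpL7 they are 7 bp apart.
RpL7, chr2L:10201005-10201034, plus strand: cgatggcgCGCGTGtCACGTGtgcacgcat
ebd2, chr3L:21346564-21346593, plus strand: taCACGTGtttagtgtaactgcCGCGTGtc
Vha55, chr3R:12627767-12627796, plus strand: tCACGTGccgtcacatgacccgtCACGCGt
lncRNA:CR43440, chr3R:28593896-28593925, plus strand: ggagttCACGTGcagagCACGCGgccgctg
ctrip, chr3R:4803308-4803337, plus strand: agccaccaaCACGTGCACGCGagcgaggca
mir-2492, chrX:11547106-11547135, plus strand: ttatcttgaCACGTGCACGCGccgcgtttt

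The strongest regions were at genes of unlike function, led by Hey itself. The Hey region, chr2R:7997954-7999091 on dm6, had a summit 471 bp upstream of its TSS with 3 CACGCG sites and the highest signal value of all 253 regions, 1440. In replicates 1, 2 and 3 this summit ranked 125, 2 and 4. The same interval had another summit 6 bp upstream of the TSS with 1 CACGTG, a signal value of 974 and rank 39 in replicate 1, with no summit within 100 bp of it in replicates 2 and 3. The labels name an insertion for Hey, and its reads cannot be told apart from those of the native locus here.

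CG32669, on the X, had its summit in the 5′ UTR 92 bp downstream of the TSS, with a signal value of 1402 and ranks 1, 26 and 18. The non-coding gene lncRNA:CR44862 had a CACGTG 0.5 bp from the summit, a signal value of 1364 and ranks 64, 8 and 2. Another, lncRNA:CR45292, had a CACGCG 8.5 bp from the summit, a signal value of 1268 and ranks 34, 11 and 11. These 3 regions and the upstream Hey summit stood within the first 125 ranks of every replicate.

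Among enzymes and regulators, fbp, which encodes fructose-1,6-bisphosphatase of gluconeogenesis, had a CACGTG in an intron 2.5 bp from the summit and ranks 71, 42 and 32. Dp, the dimerization partner of E2F at cell cycle genes, ranked 80, 48 and 39, with its CACGTG in an intron 302.5 bp downstream of the TSS. Pdp1, a bZIP activator of the circadian clock, ranked 46, 97 and 71 with a signal value of 818. For these 3 genes the replicates lay close together. CG15531 ranked 44, 41 and 50, and CG18622, with CACGCG 97.5 bp from its summit, ranked 87, 61 and 46.

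Other regions depended more on the replicate. The region at lncRNA:CR44757 ranked 2 in replicate 1 and only 785 and 625 in replicates 2 and 3. Nup44A, a nucleoporin gene, ranked 45 in replicate 1 and 461 and 312 in the others. The reverse held at E(spl)m6-BFM, one of the Bearded-like genes in the Enhancer of split cluster, with 848 in replicate 1 against 140 and 355. ND-B14.5AL, a gene for a subunit of respiratory complex I, ranked 1364 against 191 and 110, and PHDP, a homeodomain gene, 1641 against 188 and 296. RpL11 had no summit within 100 bp in replicate 2 and ranked 226 and 427 in the other replicates.

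CHMP2B, of the ESCRT-III complex that cuts membranes, had CACGCG 13.5 bp upstream of its TSS and ranks 113, 67 and 252. TRAM, a protein of the translocon in the endoplasmic reticulum, ranked 169, 116 and 378. The gene wun, for a lipid phosphate phosphatase that guides migrating germ cells, ranked 361, 124 and 222. Uhg1, a host gene of snoRNAs, ranked 189, 75 and 90 with CACGTG 11.5 bp upstream of the TSS. Trp1, a Sec62-type protein of translocation, ranked 229, 509 and 890. The other named regions, lncRNA:CR44470, lncRNA:CR44272, CG5098 and CG14478, had signal values from 377 to 465 and lay within the first 1546 ranks of each replicate.

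**Figure D1:**
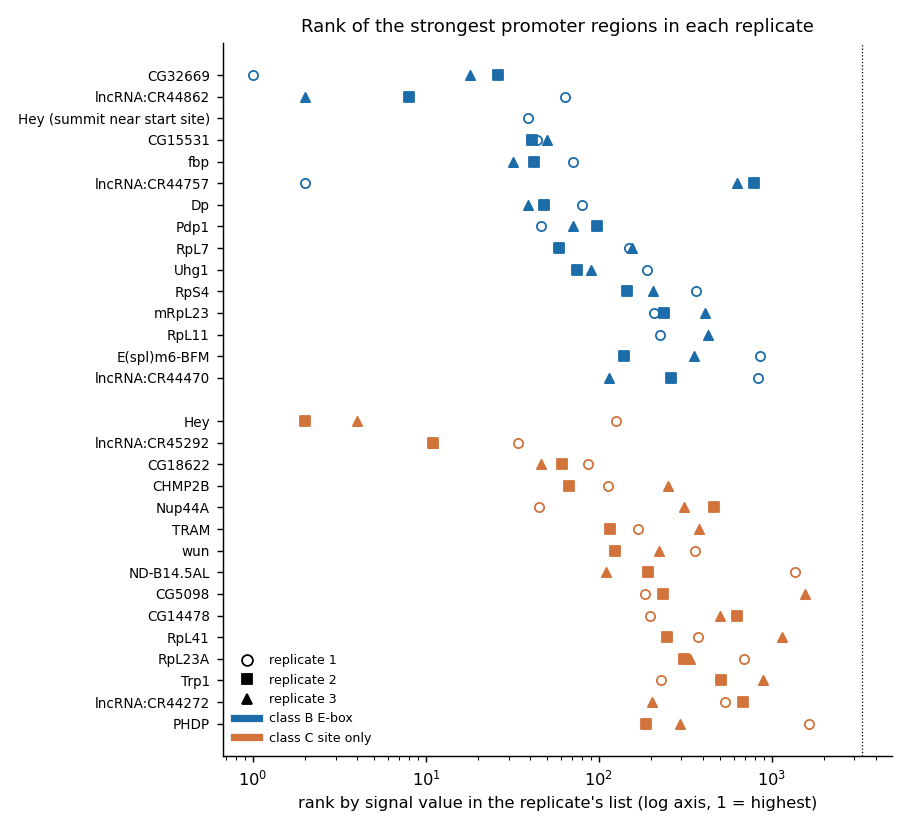
Rank of the 15 strongest promoter regions with a class B E-box (blue) and the 15 strongest with a class C site alone (orange), by nearest gene, in replicates 1 (open circles), 2 (squares) and 3 (triangles). The horizontal axis is the rank by signal value on a log axis, 1 being the highest, and the dotted line is rank 3319; lncRNA:CR44757 spans ranks 2 to 785, whereas CG15531 lies between 41 and 50.

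Signal values over all 253 regions were much like those of other promoter regions. The median signal value was 184, against 176 for promoter regions with neither site and 173 over all IDR regions. Regions with CACGTG had a median of 191 and those with CACGCG alone 180. The range was 115 to 1440. Of the regions with CACGTG, 30.6% were among the highest 20% of IDR ranks, against 14.2% of those with CACGCG alone and 21.3% of promoter regions with neither. These are shares of regions of 1 list, which are not replicates, so no test was made.

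How often the regions were found in a single replicate was the first comparison. A region counted as found when one of the 3319 highest summits of the replicate lay within 100 bp of its own. In replicates 1, 2 and 3, 76.7%, 64.0% and 68.4% of the 253 regions were found, with 95% Wilson intervals of 71.1 to 81.5%, 57.9 to 69.7% and 62.4 to 73.8%, which cover counting error over regions alone. Over all IDR regions the shares were 66.3%, 72.6% and 68.4% in the same order. The 253 regions thus stood above that background in replicate 1, below it in replicate 2 and at it in replicate 3.

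Promoter regions with neither site were found at 70.1%, 67.0% and 66.5%. The means over replicates, 69.7% ± 6.43 with a site and 67.9% ± 1.93 without (SD, n = 3), overlapped, with a two-sided exact permutation p of 0.8. With 3 values against 3 such a test cannot go below 0.1, so that no comparison between replicates here could reach the usual 5% level. In all, 12 of them were made, 7 planned and 5 added after the data were seen, and adjusted p-values (Benjamini-Hochberg) are over these 12. The adjusted p here was 0.8. Without replicate 1 the difference turned from 1.81 to -0.580 percentage points.

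Regions with CACGTG were found at 74.5%, 70.4% and 73.5%, and those with CACGCG alone at 78.1%, 60% and 65.2%. The class B regions were the higher in replicates 2 and 3 and the lower in replicate 1, and their values spread less. Means of 72.8% ± 2.12 and 67.7% ± 9.30 (SD, n = 3) gave an exact permutation p of 0.4, adjusted 0.480. In all 3 replicates, 91 of the 253 regions were found (36.0%, Wilson interval 30.3 to 42.1%), beside 36.5% of all IDR regions. The share was 41.8% with CACGTG, 32.3% with CACGCG alone and 36.3% with neither. Distant regions with a site, those beyond 500 bp from any TSS, were found in all 3 at 47.2%. Of the 253 regions, 3 were found in no replicate.

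**Figure D2:**
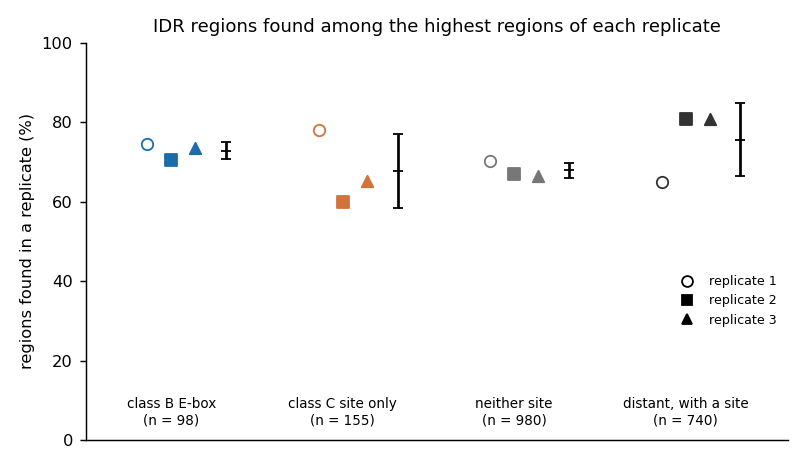
Share of IDR regions found, by a summit at most 100 bp away, among the 3319 highest of replicates 1 (open circles), 2 (squares) and 3 (triangles), for promoter regions with CACGTG, with CACGCG alone and with neither site, and for distant regions with a site; black bars are mean and SD of the 3 replicates. Class C regions span 60 to 78.1%, class B regions 70.4 to 74.5%, and distant regions lie at 65.0% in replicate 1 and 80.9% in replicates 2 and 3.

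Replicate 1 found the largest share of the promoter regions with a site and the smallest share of the distant ones. Distant regions with a site were found at 65.0% in replicate 1, the lowest, and 80.9% in both others. Of the 253 promoter regions, 39 were found in replicate 1 alone (15.4%), against 6.08% of the distant ones. Promoter regions with neither site had 14.9% in replicate 1 alone. Replicate 1 also differs in its list, where 6862 regions share the highest −log10 q-value, against 1461 and 2004 in replicates 2 and 3. The part of these ties in the result was not tested, and neither was the difference between promoter and distant regions by replicate.

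Sites were more common at high promoter summits of each replicate than at low ones. Here all promoter summits among the 3319 highest regions of a replicate's own list were set against those among its 3319 lowest. In replicate 1, 260 of 1512 high promoter summits held a site (17.2%), against 54 of 540 low ones (10%). In replicate 2 the shares were 184 of 1098 (16.8%) and 60 of 472 (12.7%), and in replicate 3 they were 231 of 1214 (19.0%) and 53 of 579 (9.15%). The high summits had the larger share in 3 of 3 replicates and the values did not overlap, with means of 17.7% ± 1.20 and 10.6% ± 1.86 (SD, n = 3). The two-sided exact permutation p was 0.1, the smallest possible, and 0.150 adjusted. The lists share summits in part, as 36.5% of all IDR regions were found among the highest of all 3 replicates. The sequence at a shared summit is the same, so the replicates are not independent samples of windows, here or for the flanks and motifs below.

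The same summits were compared with their flanks, equally long windows that span 400 to 600 bp upstream and downstream of the summit. A site was in 7.77%, 8.24% and 7.99% of the flanks in replicates 1, 2 and 3, a mean of 8.0% ± 0.236 (SD, n = 3). The centre was 2.21 times the flanks, and the values did not overlap, with an exact permutation p of 0.1 and 0.150 adjusted. Windows of 201 bp centred on each of 23581 annotated TSSs held a site in 8.75%, close to the flanks.

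Both classes showed the same order. CACGTG was in 5.95%, 7.01% and 7.58% of high promoter summits, in 3.15%, 5.08% and 2.25% of low ones, and in 2.25%, 2.87% and 2.39% of flanks. CACGCG was in 12.1%, 10.4% and 12.1% of high summits, in 7.04%, 7.63% and 7.08% of low ones, and in 5.62%, 5.46% and 5.68% of flanks. For each class the high summits lay above the low ones and above the flanks without overlap. Over all TSS windows CACGTG was in 2.82% and CACGCG in 6.11%, so CACGCG was also the more common site over TSSs in general.

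**Figure D3:**
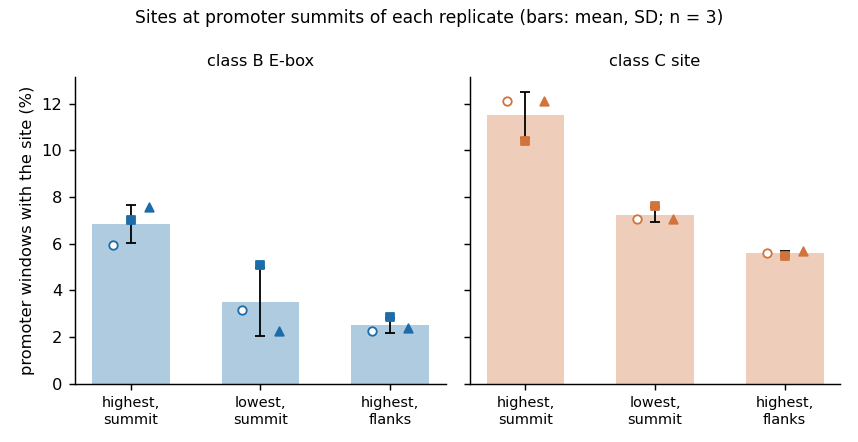
Share of promoter windows of 201 bp with CACGTG (left) and CACGCG (right) at the highest summits, at the lowest summits and in the flanks of the highest summits, by replicate (circles 1, squares 2, triangles 3); bars are means and error bars SD, n = 3. High summits hold CACGTG in 5.95 to 7.58% and CACGCG in 10.4 to 12.1%, above the other windows of the same site.

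Within the high promoter summits of a replicate, those with a site had somewhat higher ranks in each replicate. Their median rank, as a percentage of the 3319 with low values the strongest, was 43.9, 41.7 and 45.0, against 52.9, 43.4 and 51.2 for those with neither site. The values of the groups overlapped, with means of 43.5 ± 1.72 and 49.2 ± 5.10 (SD, n = 3) and an unpaired exact permutation p of 0.300, 0.4 adjusted. Both values of a replicate come from one library, and the exact sign-flip test of the 3 differences, all of one sign, gave 0.25, the smallest it can give. Sites in the inner part of the window, up to 50 bp from the summit, made up 63.0%, 54.1% and 54.8% of sites at high summits and 65.5%, 51.6% and 45.0% at low ones. The means of 57.3% ± 4.91 and 54.0% ± 10.4 (SD, n = 3) overlapped, with an exact permutation p of 0.6 and 0.655 adjusted.

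CACGTG was nearer to the summits of the IDR regions than CACGCG. The 102 CACGTG sites lay at a median of 30.5 bp from the summit, with 66.7% of them within 50 bp. The 178 CACGCG sites lay at a median of 44.0 bp, with 53.9% within 50 bp. The rule caps this distance at 100 bp, and no test was made over sites. The middle of a CACGTG was within 20 bp of the summit 33 times and from 80 to 100 bp away 10 times, and for CACGCG the outermost 20 bp were better filled, as the plot of distances shows.

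**Figure D4:**
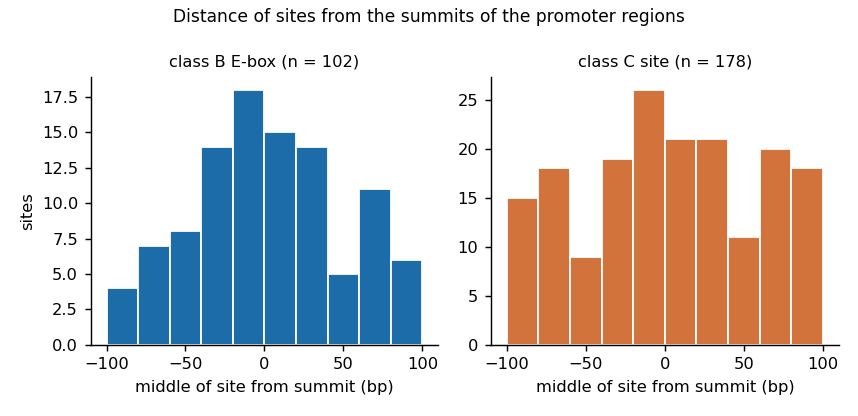
Number of sites by the distance of their middle from the summit, in bins of 20 bp, for CACGTG (left) and CACGCG (right); the 2 panels have separate vertical axes. CACGTG sites gather at the centre with a median distance of 30.5 bp, whereas CACGCG sites are spread more evenly with a median of 44.0 bp.

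The limits of the rule cut through a continuum. The nearest site was 0 to 25 bp from the summit at 98 promoter regions, 25 to 50 bp at 53, 50 to 75 bp at 50 and 75 to 100 bp at 55, and beyond the limit 100 to 125 bp at 33 and 125 to 150 bp at 30. At 3 of the 55 the site did not lie whole within 100 bp. Just inside were CG18622, Gdap2 and FoxK at 97.5 bp, with signal values of 782, 254 and 208. Just outside were Vha16-1 and lncRNA:CR43973 at 98.5 bp and DnaJ-1 at 99.5 bp, with signal values of 180, 118 and 135. At the TSS limit, ctrip at 500 bp and Fbl6 and raw at 492 bp lay inside with signal values of 163, 205 and 155. KrT95D at 508 bp, Sqor at 515 bp and MTF-1 at 523 bp lay outside with 310, 271 and 190.

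Summits with a site lay on both sides of the TSS, whereas summits with neither lay mostly upstream. Of the 253 regions, 131 had the summit upstream (51.8%, Wilson interval 45.6 to 57.9%) and 121 downstream. Of promoter regions with neither, 71.9% had it upstream. The share was 59.2% with CACGTG and 47.1% with CACGCG alone. A share of 34.0% of the 253 summits was in a 5′ UTR and 24.5% between genes, against 22.2% and 39.8% with neither. TSSs on both strands lay within 500 bp of 16.2% of the 253 summits and of 24.2% of those with neither.

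The comparison was then made over the high promoter summits of each replicate. With a site, 54.2%, 56.0% and 51.5% were upstream, and with neither 66.9%, 75.7% and 70.8%. The values did not overlap, with means of 53.9% ± 2.25 and 71.1% ± 4.44 (SD, n = 3) and an exact permutation p of 0.1, adjusted 0.150. This comparison and those below on TATAAA, CACACACA, GC and the bases beside CACGTG were chosen after the IDR regions had shown the difference. The replicates had fed the IDR list, so they are not independent of it.

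**Figure D5:**
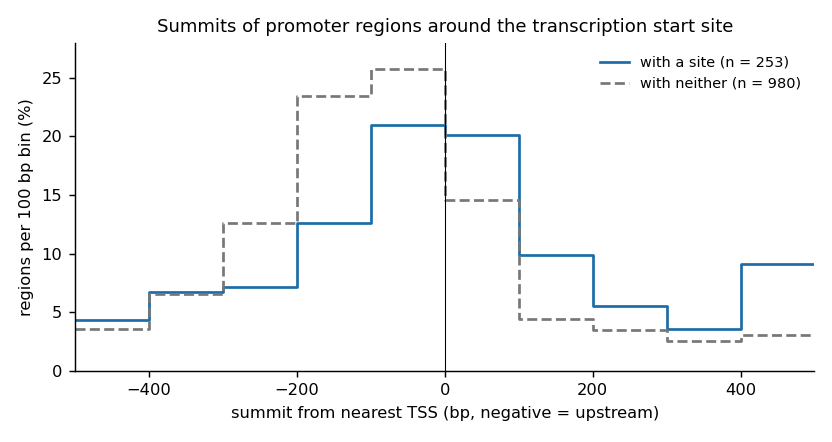
Share of promoter IDR regions per bin of 100 bp by the position of the summit from the nearest TSS, negative upstream, with a site (solid line, n = 253) and with neither (dashed line, n = 980). From 100 to 200 bp upstream lie 12.6% of regions with a site and 23.5% of the others, and in the first 100 bp downstream 20.2% and 14.6%.

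The sites themselves also differed by class in where they stood. The median position of CACGTG was 28 bp upstream of the TSS, at -28 bp, and that of CACGCG 31.5 bp downstream. Positions spread widely, with 32.4% of CACGTG and 41.0% of CACGCG within 100 bp of the TSS. Where these hexamers lie around TSSs by sequence alone was not counted. Its part in the positions, and in the upstream shares above, was not tested. CACGTG reads alike on both strands. CACGCG does not, and it was on the strand of the nearest gene at 80 of 178 sites (44.9%), with no strong preference for either strand. The sites were a small part of what the promoters offered. Of 2492 CACGTG within 500 bp of a TSS, 99 had an IDR summit within 100 bp (3.97%), and of 5107 CACGCG 179 had one (3.5%), against 1.33% of all positions within 500 bp of a TSS.

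Among high summits with a site, a smaller share held CACGTG at promoters than at distance. Of the high summits with a site at promoters, 34.6%, 41.8% and 39.8% held CACGTG, and of the distant ones 61.3%, 62.9% and 64.6%. The values did not overlap, with means of 38.8% ± 3.73 and 62.9% ± 1.63 (SD, n = 3) and an exact permutation p of 0.1, adjusted 0.150. In the sequence, 2492 CACGTG and 5107 CACGCG lay within 500 bp of a TSS, out of 16428 and 26519 on the 6 arms. CACGCG was thus the more common hexamer both near TSSs and over the 6 arms, and the part of this background in the difference was not tested.

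In the same comparison, CACGTG sites differed in the base 2 positions outside the core. A G stood 2 bases outside the core on both strands at 19 of 102 CACGTG sites of the promoter regions (18.6%), at 29.7% of those of distant IDR regions, and at 5.90% of all CACGTG within 500 bp of a TSS. At high summits of replicates 1, 2 and 3 the share was 16.1%, 19.8% and 13.5% at promoters and 32.7%, 28.6% and 29.4% at distance. Means of 16.5% ± 3.12 and 30.3% ± 2.18 (SD, n = 3) did not overlap, with an exact permutation p of 0.1, adjusted 0.150. Directly outside the core, counted on both strands, the base was G at 40.7% and A at 32.4%, C at 11.8% and T at 15.2%. In the same order the shares were 38.6%, 33.7%, 15.9% and 11.8% at distant IDR regions. They were 32.8%, 26.7%, 21.1% and 19.3% at all CACGTG within 500 bp of a TSS. Beside CACGCG, T stood directly 5′ of the core at 7.87% of the 178 sites and at 7.73% of those of distant IDR regions. It stood there at 16.6% of all CACGCG within 500 bp of a TSS.

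Other short motifs were counted in the same windows on both strands, and a match describes letters only. TATAAA, the core of the TATA box, was in 12.6% of the 253 windows, in 26.8% of promoter windows with neither site, in 18.6% of all IDR windows and in 26.2% of TSS windows. It was about as rare with CACGTG (12.2%) as with CACGCG alone (12.9%). At high promoter summits it was in 13.8%, 17.4% and 18.6% with a site and in 18.8%, 31.0% and 28.2% with neither. Means of 16.6% ± 2.48 and 26% ± 6.39 (SD, n = 3) gave an exact permutation p of 0.1, adjusted 0.150. The windows with a site were richer in G and C, with a median of 49.8% against 41.8% with neither, and of 48.7% when the sites were left out. At high summits the medians were 50.2%, 50% and 47.3% with a site and 45.8%, 38.8% and 40.3% with neither, which did not overlap, with an exact permutation p of 0.1 (n = 3), adjusted 0.150. Both sites are rich in G and C, so the rule itself sorts windows by composition, and leaving out the hexamers does not undo that. The medians at high summits were of whole windows, sites included. The GC comparison therefore cannot tell a trait of these promoters from the sorting by the rule. The part of base composition in the TATAAA count, and in the CACACACA count below, was not tested.

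CACACACA, a CA repeat, was in 14.2% of the 253 windows, 7.76% of promoter windows with neither, 10.5% of all IDR windows and 4.08% of TSS windows. A repeat can run into CACGCG and share its first letters. With only the hexamers masked it was in 13.0%, and a repeat that abuts a site was still counted. The search at high promoter summits was of whole windows, sites included. CACACACA was there in 13.5%, 12.5% and 16.9% with a site and in 7.43%, 7.11% and 8.14% with neither. Means of 14.3% ± 2.30 and 7.56% ± 0.526 (SD, n = 3) gave an exact permutation p of 0.1, adjusted 0.150. Neither count sets repeats that run into a site apart from other repeats. GAGAG, the GAGA element, was in 34.4% of the 253 windows against 29.7% with neither and 24.3% of TSS windows. GTGGGAA, a core that Su(H), the DNA-binding protein of Notch signalling, binds, was in 3.56%, against 2.76% with neither and 2.22% of TSS windows.

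The housekeeping promoter motifs TATCGATA and GGTCACACT were not more common than in TSS windows, and other motifs are listed after them. TSS windows are centred on the TSS, whereas region windows are centred on summits up to 500 bp away. Only 41.1% of the 253 summits lay within 100 bp of a TSS. Motifs with a fixed place at the TSS are therefore not compared at like positions, here or for TATAAA above. TATCGATA, the DNA replication-related element, was in 3.16% of the 253 windows, 3.57% with neither and 5.45% of TSS windows. GGTCACACT, the site of M1BP, was in 1.19%, 1.12% and 3.71%. The initiator core TCAGT was in 37.2%, 36.2% and 42.2%. The N-box CACNAG, which some bHLH-Orange proteins bind, was in 28.1%, 26.7% and 23.2%. CAGCTG, an E-box of proneural proteins, was in 11.1%, 12.4% and 12.3%. The E2F core TTGGCGC was in 1.98%, 2.86% and 3.35%.

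Genes with a TSS within 500 bp of a summit were counted in 18 lists chosen with earlier results in view. Over all 18164 genes, 297 had a region with a site (1.64%) and 1450 had any promoter region (7.98%). Of the genes with any promoter region, 20.5% had one with a site. Counts in lists are read beside these shares, and no test was made.

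Cytosolic ribosomal protein genes were the longest run of one function. Of 86 such genes, 16 had a region with a site (18.6%), and 52 had any promoter region (60.5%). Of the 52, 30.8% had a region with a site, beside 20.5% of all genes. CACGTG was at 6 of the 16 and CACGCG at 11, RpL7 having both. All 16 summits lay within 78 bp of the TSS, whereas 41.1% of the 253 lay within 100 bp. The signal values ran from 138 to 713 with a median of 302.

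RpL7 had the highest, with ranks 150, 59 and 155, followed by RpS4 with ranks 362, 145 and 205 and RpL11. RpL41 ranked 374, 248 and 1141 and RpL23A 688, 312 and 337. Over the 16 genes the median ranks were 1516, 351 and 776. Of the 16, 13 were found among the 3319 highest of replicate 1, 15 in replicate 2 and 16 in replicate 3. The fewest were in the replicate where the share over all 253 regions was highest. Among other genes of protein synthesis, 1 of 73 mitochondrial ribosomal protein genes had a region with a site, mRpL23, with ranks 209, 237 and 413. Of 51 translation factor genes only eEF2, elongation factor 2, had one, with ranks 1391, 539 and 453. Of 25 ribosome biogenesis genes only Fib, fibrillarin, had one, with ranks 1114, 7894 and 10790.

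Of the 12 bHLH-Orange genes, Hey and Sidpn had a region with a site (16.7%), and 5 had any promoter region. Sidpn had CACGCG 19.5 bp from a summit in its 5′ UTR and ranks 12659, 695 and 1839. Of 32 genes of the Notch pathway, 4 had a region with a site (12.5%), and 10 had any promoter region (31.2%). Over all genes these shares were 1.64% and 7.98%, so regions of any kind were also more common at this list. E(spl)m6-BFM had the highest signal value, 466. The gene numb, an inhibitor of Notch in asymmetric division, ranked 1415, 12380 and 3068. The gene mam, for the Notch coactivator Mastermind, ranked 5714, 2470 and 3460. The gene kuz, for a protease that cleaves Notch at the membrane, ranked 2510, 4728 and 3230. Each of these 3 lay beyond rank 3319 in at least 1 replicate.

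Of 28 proneural and neuroblast genes, 2 had a region with a site, and 6 had any promoter region (21.4%). SoxN, a SoxB factor of the neuroectoderm, ranked 2594, 748 and 1404, and sna, which encodes Snail, 4834, 1428 and 1139. Of 21 genes of E-box factors outside the bHLH-Orange family, 1 had a region with a site, and 5 had any promoter region (23.8%). The 1 was Mondo, a sugar-sensing bHLH factor, with CACGCG 7.5 bp from its summit and a signal value of 141. The Mondo region ranked 1066 in replicate 1 and 10412 in replicate 3, with no summit within 100 bp in replicate 2. Of 12 clock genes, Pdp1 and Fbxl4 had a region with a site, and 4 had any promoter region (33.3%). Of 29 cell cycle genes, Dp and dup, the Cdt1 of replication licensing, had a region with a site, and 2 had any promoter region. The regions counted for Fbxl4 and dup had another gene as their nearest. None of 28 genes of neuronal function, 48 of the proteasome or 22 of lysosome and autophagy had a region with a site. In these lists 3, 1 and 1 genes had any promoter region. At the 1.64% of all genes, lists of this size can hold none, so no absence is read from them.

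Groups of cell maintenance had a few. Of 22 heat shock genes, the constitutive chaperones Hsc70-3, Hsc70-4 and Hsc70-5 had a region with a site (13.6%), of which Hsc70-3 and Hsc70-4 held both sites. Any promoter region was at 8 of the 22 genes (36.4%), against 7.98% of all genes. The signal values of the 3 Hsc70 regions ran from 131 to 208. Of the 3 regions, 3 were found in replicate 1, 1 in replicate 2 and 1 in replicate 3. Of 33 genes of the V-ATPase, the pump that acidifies vesicles, Vha55, Vha44 and Vha100-2 had a region with a site, with signal values from 115 to 194. Any promoter region was at 6 of the 33 (18.2%). Of 84 genes of the respiratory chain and ATP synthase, ND-B14.5AL and COX7C had a region with a site, and 7 had any promoter region (8.33%).

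Non-coding genes were counted too. Of 2447 long non-coding RNA genes, 27 had a region with a site (1.10%), below the 1.64% of all genes, though lncRNA:CR44862 and lncRNA:CR45292 were among the strongest. Any promoter region was at 141 of them (5.76%), against 7.98% of all genes. Of the 141, 19.1% had a region with a site, close to the 20.5% of all genes with any promoter region. The 28 regions at these genes had signal values from 116 to 1364, with a median of 180, and 25% of their summits were within 100 bp of the TSS. Of 257 snoRNA genes, 3 had one, of which snoRNA:Me28S-G3081a shares the Uhg1 region.

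The 12 regions with both sites were spread over the signal range. RpL7 led with 713, followed by ebd2 with 280, Hsc70-4 with 208, COX7C with 204, ome with 197 and Vha55 with 194. Below these were lncRNA:CR43440 with 184, ctrip with 163, Sp1 with 151, mir-2492 with 135, Hsc70-3 with 131 and Snoo with 122. Only RpL7 and ebd2 ranked within the first 800 of every replicate, ebd2 at 720, 800 and 747. The starts of the sites were 6 to 165 bp apart. Of all 253 regions, 26 held more than 1 site, and none more than 3.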

How the data were processed

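ChIP-seq of Hey-GFP was analysed from region lists in narrowPeak format, on assembly dm6 per the labels. Per the deposited listings of files, the authors called the regions of each replicate from its alignment with a control, and derived the IDR list from the replicate lists and a pooled list. Not given in the sources used here were the aligner, the caller, the read depth and the IDR threshold. The signal value is the authors' score per region, of unstated scale, and ranked regions within a list. The deposited −log10 q-value has many ties at its highest value and was not used for ranks. Regions that repeat an interval with another summit, 53 in the IDR list, were kept.

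TSSs were those of Ensembl release 115, and bases those of the RefSeq release 6 sequence. All values were computed with Python 3.11.15, numpy 2.4.6 and scipy 1.17.1, and figures with matplotlib 3.10.9. Both strands were searched for sites, whole within 100 bp of the summit. Comparisons used exact permutation tests over 3 replicates, unpaired, and an exact sign-flip test as the replicate block, whose smallest p is 0.25. The same replicate number marks both values of one library. P-values measure the spread between these replicates. For shares of sites, motifs, bases and positions, the replicates read 1 genome at partly the same summits. A small spread there does not measure how such a share would vary over independent sets of summits. The site search was tested on simulated data, where all of 600 sites planted in 3319 regions were found (100%). The members, lists and tests were chosen with earlier results of these data known. The names printed are the nearest genes of the 15 strongest regions with CACGTG and with CACGCG alone, all with both sites, up to 3 per gene list, those next to the TSS limit and those whose sites are printed. The genes next to the site limit, and kuz, the fourth of its list, were chosen after their values were seen. Of the list symbols, 3 matched no gene. Alternatives are in the closing section.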

Additional observations from a re-analysis of the deposited data

How the results depend on the processing

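The number of regions follows the limits chosen. From 253 it went to 147 with sites within 50 bp of the summit, 142 among the stronger IDR regions (split at the median rank) and 91 when found in every replicate. When found in both replicates that remain without 1 of them, it was 117 to 129. Other limits gave 179 to 363. The difference in recovery between regions with a site and with neither, 1.81 percentage points, turned to -3.76 among the stronger IDR regions and ranged from -0.580 to 4.21 when 1 replicate was left out, negative without replicate 1; the cause was not tested. The inner share of sites, 3.29 points, turned to -1.91 with TSSs within 250 bp, and the cause was not tested. The other 10 comparisons kept their direction under each alternative tried: the high against low site share ran from 4.39 to 10 points, centre against flanks from 6.24 to 12.2, and the class B share at promoters against distance from -27.2 to -18.8. With the replicate block (sign-flip within libraries), the exact p was 0.25, the smallest possible, for these 3, the median rank and the 5 added comparisons, 0.75 for recovery with a site against neither, and 0.5 for recovery by class and for the inner share. Read depth is unknown, so what it limits cannot be stated.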
